A study of Mus musculus with 12 samples.

Results

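The comparison described here is the addition of laminin to a poly-D-lysine coat (PDL) under freshly dissociated spinal cord cells, read by RNA sequencing in 6 of the 12 libraries of the series: 3 from wells with laminin on PDL and 3 from wells with PDL alone. The 6 libraries were chosen by the coat in their labels and not by a measured value. The cells came from C57BL/6 mouse embryos, wild type and at embryonic day 12, and were plated at 500000 cells per well in Neurobasal medium with B27. They were lysed after 48 hours. Every well, the controls included, carried PDL at 20 μg/ml, and the Laminin wells also had laminin at 1 μg/ml, rinsed with medium and kept wet until plating, whereas the PDL coat was air-dried. The other 6 libraries came from wells coated also with wild-type myelin membranes (10 μg/ml), 3 without laminin (Myelin) and 3 with it (laminin plus myelin), and entered the same fit. The labels call the 3 libraries of a coat biological replicates without naming separate litters or culture days, and the p-values below speak only of the spread among these libraries. The cells were a mixed population of the whole cord and not sorted, and in such bulk samples fewer cells of a type and less RNA per cell cannot be told apart.

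Laminins are cross-shaped proteins of 3 chains that form the sheet of basement membranes. Cells bind them through integrins, among them the pairs formed by Itga3, Itga6 and Itga7 with Itgb1, and through dystroglycan. In the embryonic cord, laminin lies under the pia and along the endfeet of radial progenitors, and cultured neurons extend long neurites on it. Poly-D-lysine is a synthetic polymer with positive charges to which cells stick without a specific receptor.

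The libraries had the markers of the labelled tissue. All 14 pan-neuronal genes and all 20 progenitor genes were measured above the low-count filter, as were 36 of 39 Hox genes and 22 of 24 transcription factors of spinal neuron classes. Markers of cells that do not come from the neural tube were present too. They comprised 18 of 18 microglial genes, 24 of 25 genes of matrix and mesenchyme, and 11 of 16 genes of vessels and pericytes, where the endothelial markers Cdh5, Tie1, Cldn5 and Emcn did not pass the filter. No marker of these lists was at 0 in all 6 libraries except Cdh19 of the Schwann lineage.

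Some properties of the libraries moved with the coat and touch every result below. Counts in genes were 36061511 to 39236227 on PDL and 39630967 to 45024091 on laminin. The share of all counts that fell outside annotated genes was 17.4%, 19.4% and 17.5% in PDL replicates 1 to 3 and 8.46%, 13.2% and 13.7% in Laminin replicates 1 to 3. The groups did not overlap (18.1% ± 1.13 against 11.8% ± 2.89, SD, n = 3; exact two-sided permutation p = 0.1, the smallest that 3 against 3 allows). With myelin the share was 11.3% ± 0.927 without laminin and 11.5% ± 0.468 with it (SD, n = 3), so the PDL libraries stood apart from the other 9. The coat and this share changed together among the 6 libraries and cannot be told apart in them. Libraries with the same replicate number also deviated together from the mean of their coat (r from 0.458 to 0.678 across genes, against -0.692 to 0.198 for different numbers), and the number was a block in every fit unless stated.

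Of 15737 genes tested, 1282 (8.15%) differed between laminin and PDL at an adjusted p under 0.05, by the quasi-likelihood test of edgeR with Benjamini-Hochberg adjustment. Of these, 419 (2.66%) were higher on laminin and 863 (5.48%) were lower. The median log2 change was 0.34 among the higher and -0.52 among the lower, against 0.02 over all genes tested. Falls reached further than rises: 152 of the lower genes and 13 of the higher ones differed by at least 2-fold. The 3 laminin libraries lay wholly above the 3 PDL libraries in 270 of the 419 higher genes and wholly below them in 735 of the 863 lower genes. Over all genes tested, 1644 (10.4%) lay wholly above and 1798 (11.4%) wholly below. The smallest adjusted p was 0.0171, shared by many genes, and 5099 genes (32.4%) had an unadjusted p under 0.05.

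These calls rested on particular libraries. Without PDL replicate 1 no gene passed (2828 at an unadjusted p under 0.05), and the same held without PDL replicate 2 (3915). All 1282 genes kept their sign in these fits. All 419 higher and 861 of the 863 lower genes already had the same sign in all 3 same-numbered pairs, so this was nearly fixed in advance. The count of genes called was 1280 without PDL replicate 3, 641 without Laminin replicate 1, 2481 without Laminin replicate 2 and 1471 without Laminin replicate 3. In the same order 255, 163, 1267 and 642 were higher, and 1025, 478, 1214 and 829 were lower. The counts per list given below for these fits are to be read beside these counts over all genes. In each of these last 4 fits, 90 of the higher and 423 of the lower genes remained called. With the share of counts outside genes as a covariate no gene passed, 166 of the 419 higher and 445 of the 863 lower genes turned sign, and their median log2 changes became 0.05 and 0.01. Without the replicate block no gene passed either (2735 at an unadjusted p under 0.05), and none passed in a fit of these 6 libraries alone with the block (3205). Leaving out a single Myelin library left 394 to 637 calls, and leaving out a single laminin plus myelin library left 673 to 968.

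**Figure D1:**
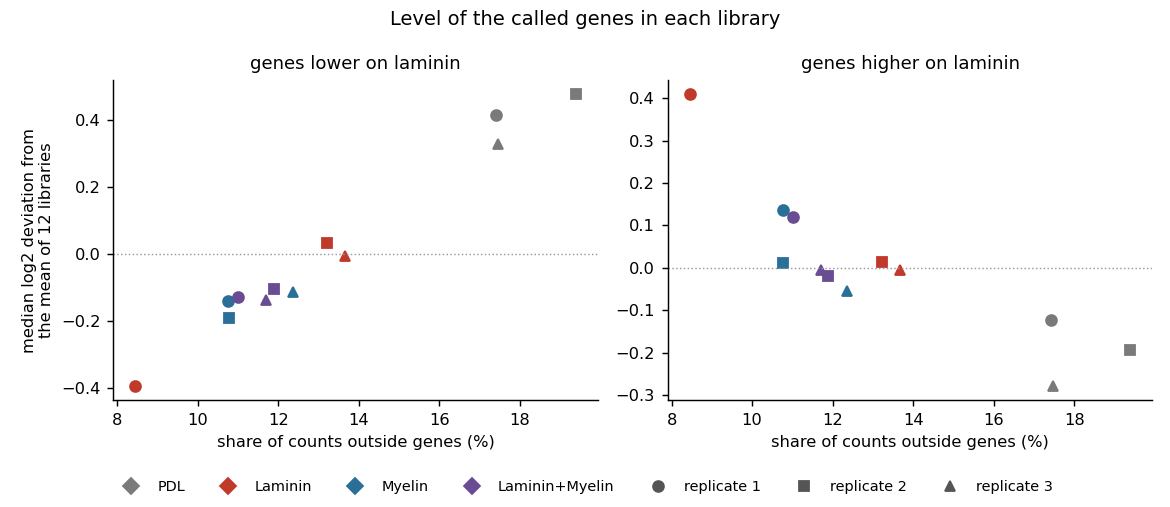
Each point is 1 of the 12 libraries. The horizontal axis is its share of counts outside annotated genes (%) and the vertical axis is the median log2 deviation of the 863 lower genes (left) or the 419 higher genes (right) from their mean over 12 libraries. The PDL libraries lie at 17.4% to 19.4%, and Laminin replicate 1, at 8.46%, lies lowest for the lower genes and highest for the higher genes; the genes were chosen by the laminin and PDL libraries, so the plot is a description.

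The lists of smooth muscle and matrix genes held some of the largest rises among genes with a mean of at least 1 CPM on either coat. CPM is the count divided by a scaled library size. Among 15 measured genes of smooth muscle, 4 rose (26.7%, against 2.66% of all genes), none fell and 6 were non-overlapping and higher (10.4% of all genes were). Of the 15, 9 were above 0 and 6 below it, where 52.3% of all genes were above. Their median log2 change was 0.16, against 0.02 over all genes. Without Laminin replicate 2, 5 of them were called higher and 1 lower. Acta2, which encodes the alpha actin of smooth muscle (GRCm38 chr19:34241090-34255590), was at 24.6, 17.4 and 12.7 CPM in PDL replicates 1 to 3 and at 53.6, 42.3 and 37.8 in Laminin replicates 1 to 3. Every Laminin library was above every PDL library (log2 change 1.31 ± 0.22 SE, adjusted p = 0.0171). Its 300-base window around the start of transcription (RefSeq, GRCm38.p6, chr19:34255324-34255623, minus strand) is shown because serum response factor, which drives actin genes of muscle, binds CArG boxes, 6 bases of A or T between CC and GG. The capitals mark the 2 matches with at most 1 other base among those 6, CCCTATATGG from base -84 and CCTTGTTTGG from base -34.

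Acta2 promoter: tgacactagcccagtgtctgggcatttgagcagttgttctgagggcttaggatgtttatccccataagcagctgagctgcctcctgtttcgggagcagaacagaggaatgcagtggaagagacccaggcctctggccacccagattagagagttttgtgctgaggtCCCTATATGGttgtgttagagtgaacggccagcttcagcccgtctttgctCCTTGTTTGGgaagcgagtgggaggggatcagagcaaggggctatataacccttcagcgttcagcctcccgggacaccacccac

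No box without a mismatch was found in that window. Boxes with at most 1 mismatch were found in the windows of 11.3% of 27025 mouse genes, and at least 2 of them in 0.932%. They occurred in 11.3% of the 300 higher genes with a window and in 64 of the 636 lower genes with one. Of the 11 smooth muscle genes with a window only Acta2 and Myl9 held one, and Tpm2 held none. The motif reads the same on both strands, and a match is a description of letters.

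Actg2, the gamma actin of smooth muscle, was at 1.8, 1.34 and 0.892 CPM on PDL and 4.85, 4.07 and 3.62 CPM on laminin. It had the largest rise among the named genes, and its groups did not overlap (log2 change 1.68 ± 0.26 SE, adjusted p = 0.0171). Tagln, an actin-binding protein of the same cells, was at 14.7, 12.4 and 9.69 CPM on PDL and 28.9, 20.7 and 18.0 on laminin, where replicate 1 was highest on both coats (log2 change 0.88 ± 0.21 SE, adjusted p = 0.0338). Tpm2, a tropomyosin that lies along actin filaments, was at 1.56, 2.08 and 1.71 CPM against 3.93, 3.47 and 3.50 (log2 change 1.04 ± 0.18 SE, adjusted p = 0.0171). The groups of both genes were separate. Actin genes share much of their coding sequence, and reads aligned to several places were not assigned to genes, so the levels of Acta2 and Actg2 are those of their uniquely placed reads. Without Laminin replicate 1, Actg2 and Tpm2 were the smooth muscle genes that kept the call.

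Of 24 measured genes of fibrous matrix and mesenchyme, 5 rose (20.8%, against 2.66% of all genes) and none fell, with a median log2 change of 0.27. Col8a1, a short-chain collagen of vessel walls, was at 2.97, 3.13 and 2.39 CPM on PDL and 6.03, 6.86 and 5.78 on laminin, the latter all higher (log2 change 1.15 ± 0.20 SE, adjusted p = 0.0171). Col3a1 and Col1a2 encode fibrillar collagens. Col3a1 was at 10.7, 4.60 and 3.39 CPM against 15.3, 10.2 and 8.87, and here the coats overlapped because replicate 1 was high on both, while laminin was higher within each replicate number (log2 change 0.97 ± 0.20 SE, adjusted p = 0.0226). Col1a2 rose by 0.63 ± 0.17 SE on the log2 scale, with overlapping groups. Of these 24 genes, 3 were called and higher without Laminin replicate 3, and 3 without PDL replicate 3. The small matrix proteoglycan Bgn was at 4.09, 3.60 and 2.49 CPM and 6.10, 7.01 and 6.15 CPM. Loxl1, an enzyme that cross-links elastic fibres, was at 0.834, 0.578 and 0.472 CPM on PDL and 1.46, 1.34 and 1.01 CPM on laminin. The log2 changes of Bgn and Loxl1 were 0.93 ± 0.20 and 1.02 ± 0.27 SE. With 1 of the 6 libraries left out, Bgn kept its call in 4 of 6 fits and Loxl1 in 0. Of 15 other basement membrane genes 1 passed, a rise (6.67%, where 2.66% of all genes rose and 8.15% passed). In that list 10 genes were above 0 and 5 below. The gene was Col4a1, a chain of the network collagen of basement membranes. It was at 29.5, 27.5 and 33.2 CPM against 37.3, 57.5 and 59.8 (log2 change 0.74 ± 0.16 SE, adjusted p = 0.0248). Its partner Col4a2 differed by 0.52 ± 0.15 SE at an adjusted p of 0.0503.

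Of 21 genes of the TGF-beta pathway 2 rose (9.52%, against 2.66% of all genes), none fell and the median log2 change was -0.02. Tgfb3, a ligand of the pathway, was at 5.11, 4.34 and 2.41 CPM on PDL and 8.67, 8.65 and 6.91 CPM on laminin, without overlap (log2 change 1.08 ± 0.19 SE, adjusted p = 0.0171). Tgfb1, another ligand, did not pass (log2 change 0.38 ± 0.20 SE, adjusted p = 0.214). Of 19 targets and effectors of YAP and serum response factor, 2 rose (10.5%, against 2.66% of all genes) and 1 fell (5.26%, against 5.48%). Ctgf, a matrix protein that YAP induces, was at 10.2, 11.6 and 9.40 CPM and 15.8, 16.4 and 17.3 CPM, and the LIM protein Fhl2 rose by 0.38 ± 0.10 SE on the log2 scale. Tead1, the DNA-binding partner of YAP, went the other way, at 94.3, 97.2 and 105 CPM on PDL and 48.5, 78.3 and 84.7 on laminin (log2 change -0.53 ± 0.11 SE, adjusted p = 0.0227). Without Laminin replicate 1, Tead1 and Tgfb3 kept the call and Ctgf and Fhl2 did not. Fhl2 kept it in 0 of the 6 fits with 1 library left out, and Ctgf in 1.

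Other genes among the 12 largest rises were Igfbp7, a secreted binding protein of insulin-like growth factors, Tinagl1, a matrix protein of basement membranes, Cd248, a surface protein of pericytes and fibroblasts, and Ms4a7, a membrane protein of macrophages. Igfbp7 was at 1.33, 1.24 and 1.02 CPM on PDL and 3.35, 3.01 and 2.92 CPM on laminin, with no overlap (log2 change 1.39 ± 0.27 SE). The log2 changes of Tinagl1, Cd248 and Ms4a7 were 1.12 ± 0.27, 1.03 ± 0.29 and 1.02 ± 0.29 SE, at levels under 5 CPM in each of the 6 libraries. Of the 16 measured galectins, annexins and S100 proteins, 2 rose (12.5%, against 2.66% of all genes) and none fell, with a median of 0.28. Lgals1, a secreted lectin that binds sugar chains of laminin and integrins, was at 4.09, 4.28 and 6.38 CPM against 8.14, 7.82 and 11.3, all higher on laminin (log2 change 0.90 ± 0.20 SE, adjusted p = 0.0262). Anxa3, a membrane-binding annexin, rose by 0.83 ± 0.23 SE on the log2 scale.

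**Figure D2:**
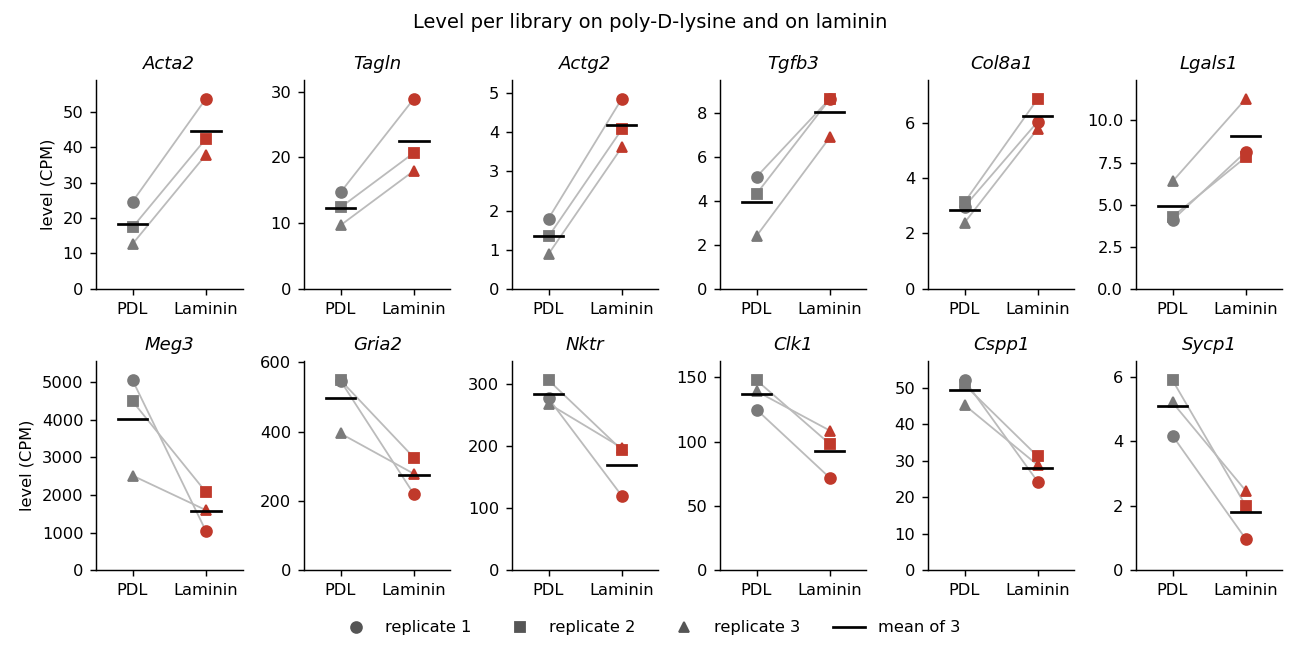
Level (CPM, linear axes from 0) of 6 genes that rose and 6 that fell, in the 3 PDL (grey) and 3 Laminin (red) libraries; grey lines join the same replicate number and black bars are means of 3. In all 12 genes the coats do not overlap, and Laminin replicate 1 is the lowest library for each of the 6 falls.

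The receptors for laminin did not pass the test. None of the 10 measured receptor genes did, in a comparison where 8.15% of all genes passed, so this count is near that share. Their median log2 change was -0.07, against 0.02 over all genes. Itgb1, the beta chain shared by most laminin-binding integrins, was at 100.1, 112 and 147 CPM on PDL and 114, 121 and 146 on laminin (log2 change 0.09 ± 0.09 SE, adjusted p = 0.479). Its partners Itga6, Itga3 and Itga7 had log2 changes of -0.07 ± 0.09, -0.13 ± 0.12 and -0.11 ± 0.19 SE, and all 3 had overlapping groups. Dag1, which encodes dystroglycan, was at 163, 151 and 159 CPM and 162, 169 and 184 CPM (log2 change 0.12 ± 0.07 SE). Itga1, which also binds collagen, and Itga2 had changes of 0.45 ± 0.28 and -0.30 ± 0.43 SE. The largest receptor change was in Itgb4, the integrin chain of hemidesmosomes, at 0.495, 2.21 and 1.36 CPM against 0.301, 1.06 and 1.27 (log2 change -0.65 ± 0.29 SE, adjusted p = 0.143). The Lutheran glycoprotein gene Bcam changed by -0.07 ± 0.21 SE. Rpsa, whose protein is known both as a laminin receptor and as a part of the small ribosomal subunit, had a change of 0.34 ± 0.13 SE, close to the median of the ribosomal proteins given below. For none of the 10 genes were the coats separate. Without Laminin replicate 2, 1 of them was called and higher.

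None of the 9 laminin chains that could be tested passed either, again near the 8.15% of all genes, with a median log2 change of -0.21. Lamc1, the gamma chain of most laminins, was at 60.9, 59.4 and 74.2 CPM on PDL and 41.9, 56.8 and 74.5 CPM on laminin (log2 change -0.21 ± 0.11 SE). Lamb1 was at 8.99, 7.91 and 7.90 CPM against 9.20, 10.5 and 9.37, the only chain whose Laminin libraries were all higher (log2 change 0.23 ± 0.10 SE, adjusted p = 0.144). Lama5 had the smallest adjusted p, 0.063, with 3.60, 15.3 and 19.5 CPM on PDL and 2.06, 9.77 and 17.5 CPM on laminin. Replicate 1 was low on both coats, and the log2 change was -0.49 ± 0.15 SE. The other alpha chains Lama1, Lama2, Lama3 and Lama4 had changes of -0.31 ± 0.16, 0.26 ± 0.30, -0.37 ± 0.19 and 0.42 ± 0.35 SE. The beta chain Lamb2 had a change of -0.09 ± 0.11 SE. Without PDL replicate 3, 2 chains were called and lower, and without Laminin replicate 3, 1 was. Of 23 adaptors and kinases that act downstream of integrins, 1 passed, a fall (4.35%, near the 5.48% of all genes). It was Flna, the actin cross-linker filamin A, at 565, 579 and 471 CPM on PDL and 234, 420.2 and 419.6 CPM on laminin, where replicate 1 was lowest (log2 change -0.62 ± 0.17 SE, adjusted p = 0.0474). The integrin-linked kinase Ilk changed by 0.22 ± 0.08 SE (adjusted p = 0.096).

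**Figure D3:**
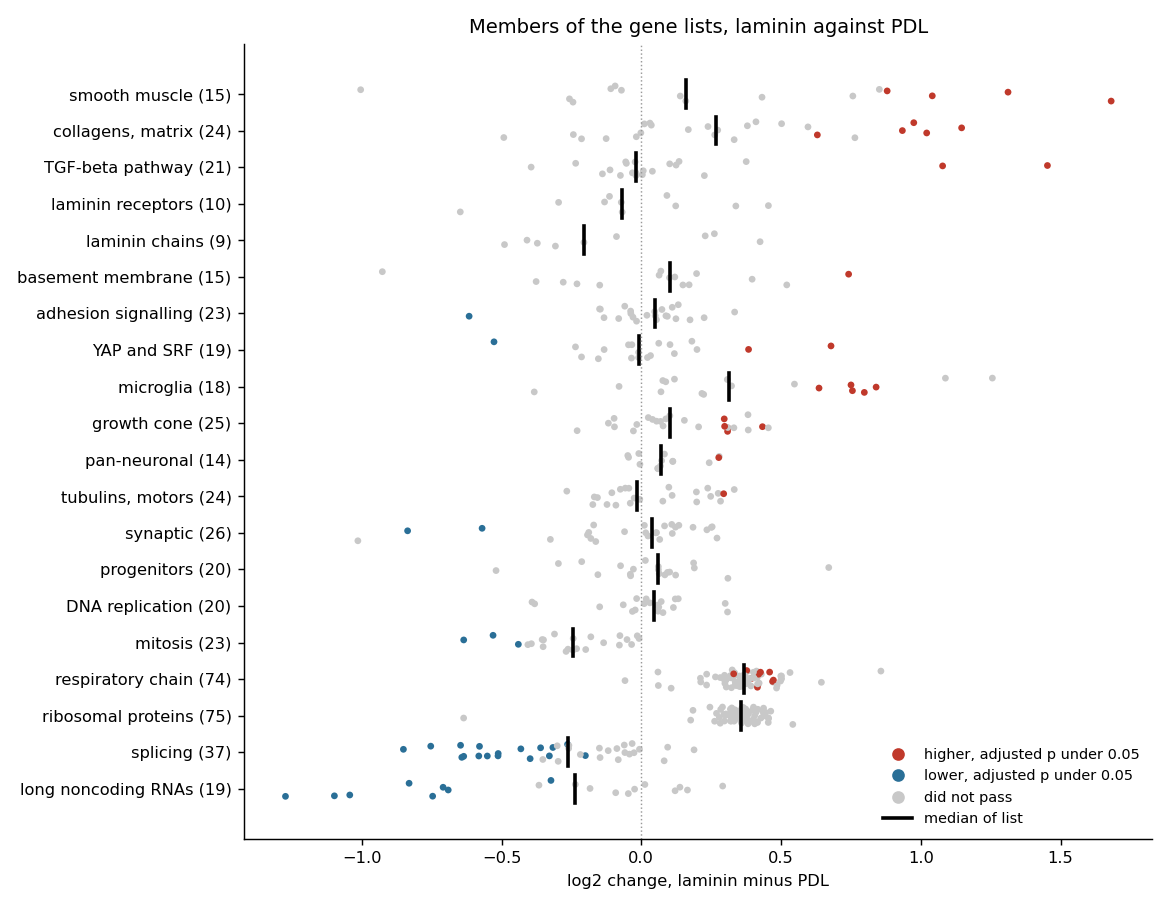
Each point is the log2 change (laminin minus PDL) of 1 measured member of a gene list, with the number of members in brackets, and the black bars are list medians. Members that rose at an adjusted p under 0.05 are red and members that fell are blue; the lists of splicing genes and long noncoding RNAs lie mostly below 0, and the respiratory chain and ribosomal proteins mostly above it.

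Neuronal genes changed by small amounts. Of 25 growth-associated genes of axons, 5 rose (2.66% of all genes did) and none fell, with a median log2 change of 0.10. Basp1 and Marcksl1, which organise actin under the membrane of growth cones, were at 1098, 969.5 and 878 and 1139, 1044 and 1025 CPM on PDL. On laminin they were at 1444, 1146 and 1045 and 1597, 1208 and 1193 CPM (log2 changes 0.30 ± 0.06 and 0.31 ± 0.07 SE). Gap43, the classical growth cone protein, was at 430.4, 416 and 317 CPM on PDL and 644, 461 and 359 CPM on laminin, higher within each replicate number although the groups overlapped (log2 change 0.31 ± 0.09 SE, adjusted p = 0.0477). Stmn3, a regulator of microtubules, and Cfl1, which severs actin filaments, rose by 0.43 ± 0.11 and 0.30 ± 0.08 SE on the log2 scale. Stmn3 was at 679, 390.4 and 386 CPM in the Laminin libraries, highest in replicate 1. Its call remained without any single Laminin library and was lost without any single PDL library. With 1 of the 6 libraries left out its log2 change was 0.23 to 0.55. Without Laminin replicate 1, 4 of the 25 growth-associated genes were called, against 9 without Laminin replicate 2 and 3 without PDL replicate 3. Over all genes 163, 1267 and 255 were higher in these fits. Of 14 pan-neuronal genes only the neurofilament Nefl rose (log2 change 0.28 ± 0.06 SE), and Tubb3 differed by 0.24 ± 0.08 SE at an adjusted p of 0.0613. Among 24 tubulins and motors only Tubb2a rose (log2 change 0.29 ± 0.07 SE); it has a close paralogue, Tubb2b, and its reads may be split between them. Without Laminin replicate 2, 5 of the 24 were called and higher, and without Laminin replicate 3, 3 were. Of all genes 1267 and 642 were.

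Lists of axon guidance and neuronal identity were read against the 8.15% of all genes called. None of 21 guidance ligands passed, and 1 of 25 guidance receptors did. That gene was Robo3, which lets commissural axons cross the midline, at 71.7, 72.1 and 65.3 CPM on PDL and 31.8, 53.4 and 56.1 CPM on laminin (log2 change -0.60 ± 0.17 SE, adjusted p = 0.0495). It fell without overlap, and Laminin replicate 1 was lowest. None of 22 transcription factors of spinal neuron classes and none of 36 Hox genes passed, with medians of 0.08 and 0.04. The smallest adjusted p in these lists was 0.0505, for Hoxb7. Of 26 synaptic and transmitter genes, 2 fell, against 5.48% of all genes. Gria2, the AMPA receptor subunit that limits calcium entry, was at 546, 548 and 395 CPM against 219.9, 325 and 278 (log2 change -0.84 ± 0.14 SE, adjusted p = 0.0171). Slc6a5, the glycine transporter of inhibitory neurons, was at 61.3, 55.0 and 29.8 CPM against 29.0, 38.8 and 27.3, with overlapping groups (log2 change -0.57 ± 0.15 SE). Without Laminin replicate 1, Gria2 kept the call and Robo3 and Slc6a5 did not. The GABA-synthesising enzyme Gad1 had a change of -0.19 ± 0.06 SE at an adjusted p of 0.0561. Of 80 subunits of potassium channels, which set the resting and firing behaviour of neurons, 4 fell, a share near the 5.48% of all genes, and none rose. The 4 were Kcnd1, Kcnh4, Kcna1 and Kcnh7, with log2 changes of -1.01 ± 0.25, -0.76 ± 0.21, -0.50 ± 0.10 and -0.35 ± 0.09 SE. The number called lower was 1 without Laminin replicate 1, 7 without Laminin replicate 2 and 8 without PDL replicate 3. Over all genes it was 478, 1214 and 1025.

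Markers of cells from outside the neural tube were measured beside these results. Of 18 microglial genes, 5 rose (27.8%, against 2.66% of all genes), none fell and 16 were above 0 (52.3% of all genes were), with a median log2 change of 0.32. The lysozyme gene Lyz2 was at 4.77, 14.6 and 20.6 CPM on PDL and 11.4, 21.6 and 32.2 on laminin (log2 change 0.80 ± 0.12 SE, adjusted p = 0.0171). Its level differed more between replicate numbers than between coats, and the groups overlapped in every one of the 5 genes. The complement genes C1qa, C1qb and C1qc and the signalling adaptor Tyrobp had log2 changes of 0.84 ± 0.17, 0.76 ± 0.19, 0.75 ± 0.19 and 0.64 ± 0.16 SE. The summed level of the 18 genes was 57.5 to 165 CPM on PDL and 70.5 to 214 CPM on laminin, and without Laminin replicate 1 only Lyz2 and C1qa kept the call. Without PDL replicate 3, 2 of the 18 were called. In the vessel and pericyte list the sums were 24.5 to 27.9 and 17.5 to 29.9 CPM. In that list 1 of 11 fell (9.09%, against 5.48% of all genes), the endothelial receptor Tek, at under 1 CPM in every library. All 6 measured red blood cell genes lay below 0 with a median of -0.40, and none passed. Their sums were 112 to 295 CPM and 121 to 219 CPM. The part of microglia, blood or vessels in the rises of matrix and muscle genes was not tested. None of 13 sensory and Schwann genes and none of 10 astroglial genes passed, where 8.15% of all genes did. Of 10 oligodendrocyte genes 1 fell (10%, against 5.48% of all genes). This was Mog, from 11.9, 11 and 7.51 CPM to 5.39, 6.35 and 5.39 CPM (log2 change -0.81 ± 0.14 SE, adjusted p = 0.0171). It encodes a surface protein of mature myelin.

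Genes of dividing cells were measured in 3 lists. None of 20 progenitor genes and none of 20 DNA replication genes passed, where 8.15% of all genes did, with medians of 0.06 and 0.04. Of 23 mitosis genes, all were below 0, 3 fell (5.48% of all genes did), and the median log2 change was -0.24. Mki67, the proliferation marker that coats mitotic chromosomes, was at 36.6, 30.8 and 50.5 CPM on PDL and 20.9, 23.1 and 31.6 CPM on laminin. Replicate 3 was highest on both coats and the groups overlapped narrowly (log2 change -0.64 ± 0.13 SE, adjusted p = 0.0225). The kinetochore genes Cenpf and Cenpe fell (log2 changes -0.44 ± 0.10 and -0.53 ± 0.14 SE), and Prc1 of the spindle midzone had a change of -0.39 ± 0.12 SE at an adjusted p of 0.0572. Without Laminin replicate 1 the number of mitosis genes called was 5, and without Laminin replicate 3 it was 1. Of 14 Notch pathway genes, 1 rose (7.14%, against 2.66% of all genes), the inhibitor of differentiation Id4 (log2 change 0.31 ± 0.07 SE).

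The 12 largest falls described here are among called genes with a mean of at least 1 CPM on either coat, the same sign in all 3 pairs and a symbol that is not that of a clone or predicted model; called genes below that level had larger fitted falls. Several of the 12 are noncoding. Mir1188 had the largest fall among them (log2 change -1.97 ± 0.53 SE, adjusted p = 0.046), from 1.43, 1.26 and 0.525 CPM on PDL to 0.116, 0.430 and 0.253 CPM on laminin. Its hairpin lies on the plus strand inside Rian (GRCm38 chr12:109603940-109661716), a long noncoding RNA of the imprinted cluster that also holds Meg3 and Mirg. The hairpin is printed because this entry of the table counts reads over it. Capitals mark the mature arms (RefSeq, GRCm38.p6, chr12:109611822-109611941). A library of long RNA does not measure the mature arms.

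Mir1188 hairpin: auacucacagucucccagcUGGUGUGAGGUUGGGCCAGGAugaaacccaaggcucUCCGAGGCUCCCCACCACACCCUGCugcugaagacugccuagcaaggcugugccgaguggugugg

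Over the whole of Rian the log2 change was -0.05 ± 0.07 SE (adjusted p = 0.67), so the fall over the hairpin was not shared by the counts of its host. Entries named as antisense RNAs, Slain1os, Sorbs2os and Chn1os3, fell (log2 changes -1.69 ± 0.26, -1.54 ± 0.35 and -1.54 ± 0.33 SE), all without overlap. The genes on the other strand, Slain1, Sorbs2 and Chn1, did not pass, with changes of 0.13 ± 0.06, -0.23 ± 0.08 and 0.18 ± 0.06 SE. The strand setting of the counting is not given in the sources used here, so reads of the 2 strands cannot be told apart where exons overlap. Snora34, a small nucleolar RNA, fell from 0.834, 1.45 and 1.15 CPM to 0.162, 0.430 and 0.737 CPM (log2 change -1.44 ± 0.32 SE). Reads over its 138 bases may come from a host transcript, which was not set beside it. Coding genes among the 12 largest falls included Sycp1, a protein that pairs meiotic chromosomes (chr3:102818499-102936100), at 4.17, 5.89 and 5.2 CPM on PDL and 0.971, 2.00 and 2.46 CPM on laminin (log2 change -1.53 ± 0.19 SE, adjusted p = 0.0171). The others were Hrc, a calcium-binding protein of muscle, Slc16a4, a transporter of the monocarboxylate family, Tmem239, Gpr111, an adhesion-type receptor, and the class I histocompatibility genes H2-M10.2 and H2-M5, whose family has near-identical members. Their log2 changes ran from -1.52 to -1.36, and all were separate between the coats.

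Of 19 measured long noncoding RNAs that stay in the nucleus or host small RNAs, 8 fell (42.1%, against 5.48% of all genes) and none rose, with a median log2 change of -0.24. Meg3 (chr12:109541001-109571726), an imprinted RNA expressed from the maternal chromosome, was at 5042, 4482 and 2513 CPM on PDL and 1047, 2079.6 and 1599 CPM on laminin, lowest in Laminin replicate 1 (log2 change -1.27 ± 0.26 SE, adjusted p = 0.0239). Mirg, a host of microRNAs in the same cluster, and Kcnq1ot1, the imprinted antisense RNA that silences neighbours of Kcnq1, fell (log2 changes -0.83 ± 0.20 and -0.69 ± 0.13 SE). Neat1, the scaffold of paraspeckles, was at 5.92, 20.6 and 23.1 CPM against 2.13, 13 and 18.0, low in replicate 1 on both coats (log2 change -0.75 ± 0.18 SE). The other 4 that fell, named after their values were seen to complete the count, were Malat1, Miat, Snhg11 and Rmst, with log2 changes of -0.71, -1.04, -1.10 and -0.32.

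Of 37 SR proteins, their kinases and related regulators, 17 fell (45.9%, against 5.48% of all genes), none rose, 34 were below 0 (52.3% of all genes were above it), and 19 lay wholly lower on laminin (11.4% of all genes did). The median log2 change was -0.26. Clk1, a kinase of SR proteins whose own RNA is often kept in the nucleus with introns retained, was at 125, 148 and 139 CPM on PDL and 71.8, 98.1 and 109 CPM on laminin (log2 change -0.58 ± 0.08 SE, adjusted p = 0.0171). Its relative Clk4 was at 78.0, 109 and 119 CPM against 49.0, 77.6 and 91.0 (log2 change -0.51 ± 0.08 SE, adjusted p = 0.0171). Nktr, a cyclophilin with a domain rich in serine and arginine, was at 277, 307 and 269 CPM on PDL and 120.2, 194 and 198 CPM on laminin, without overlap (log2 change -0.75 ± 0.13 SE). Pnn, a speckle protein, fell (log2 change -0.55 ± 0.09 SE). Without Laminin replicate 1, 15 of the 37 were called and lower. The 6 smallest p-values of the whole table also belonged to falls: Sycp1, Cspp1, Smc5, A230073K19Rik, Rock1 and Zfp182. Cspp1, a protein of the centrosome and cilium, was at 52.1, 50.9 and 45.3 CPM against 24.3, 31.2 and 28.8 (log2 change -0.82 ± 0.10 SE). Smc5, of a complex that repairs DNA, and Rock1, a kinase that drives contraction of actomyosin, fell (log2 changes -0.45 ± 0.06 and -0.69 ± 0.10 SE). Of 319 numbered zinc finger genes, 16 fell (5.02%, near the 5.48% of all genes) and 2 rose, with a median of -0.05. Zfp182 was the clearest, at 33.8, 34.6 and 31.3 CPM on PDL and 21.0, 22.2 and 21.4 CPM on laminin (log2 change -0.63 ± 0.08 SE).

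The genes that fell were long and rich in A and T. Gene models of GENCODE M21 were matched for 93.7% of the lower, 92.6% of the higher and 95.0% of all tested genes. The median length of the longest transcript was 4545 bases for the lower genes, 2121.5 bases for the higher genes and 3344 bases for all genes. The median genomic span was 37.2 kb, 10.5 kb and 23.6 kb in the same order, and the median GC content of the transcript was 46.2%, 54.4% and 49.9%. With genes in 4 equal bins, the share called lower went from 3.13% in the bin of the shortest transcripts to 9.80% in the bin of the longest, and the share called higher from 5.40% to 0.401%. From the lowest to the highest bin of GC content the share called lower went from 9.60% to 1.69%, and the share called higher from 0.722% to 4.90%. Among genes with a matched model, protein-coding genes made up 88.1% of the lower, 99.7% of the higher and 94.4% of all genes. Of 210 antisense RNAs 26 were lower (12.4%), and so were 25 of 183 intergenic long noncoding RNAs (13.7%). The same held for 8 of 75 microRNA hairpins (10.7%) and 6 of 64 small nucleolar RNAs (9.38%), against 5.48% of all genes. Reads over such short entries may come from host transcripts, which was not tested. In these 4 classes 1 gene was higher. Laminin replicate 1, the library with the smallest share of counts outside genes, was the lowest Laminin library in 87.7% of the lower genes (40.9% of all genes) and the highest in 92.8% of the higher genes (42.1% of all genes). The part of transcript length, GC content and this library in the calls was not tested apart from the fits named above.

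**Figure D4:**
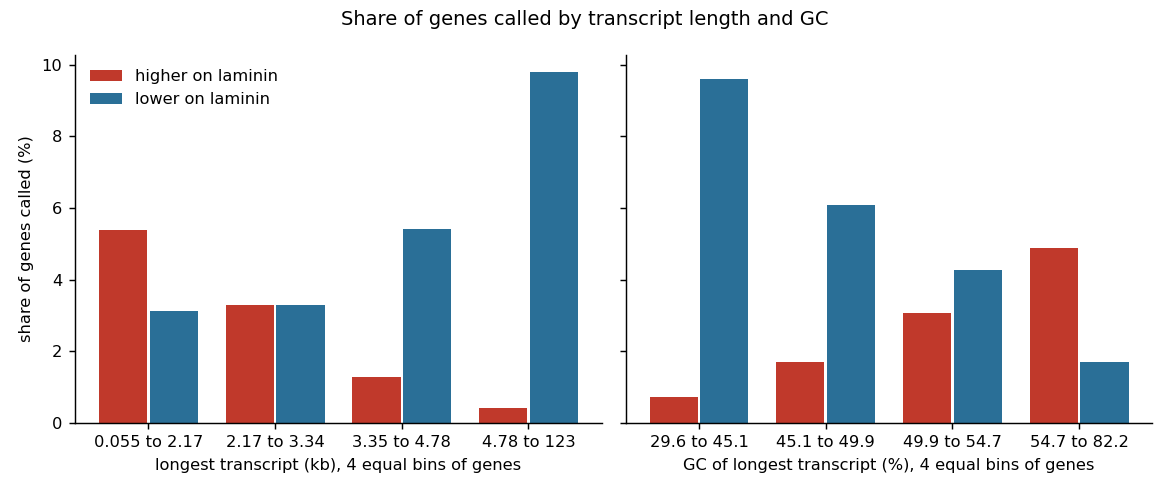
Share of genes (%) called higher (red) or lower (blue) on laminin in 4 equal bins of genes by the length of the longest transcript (kb, left) and by its GC content (%, right). The share called lower goes from 3.13% to 9.80% with length and from 9.60% to 1.69% with GC content, and the share called higher goes the opposite way.

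Nearly all genes of the respiratory chain and the ribosome lay above 0, where 52.3% of all genes lay. Of 74 nuclear genes of the respiratory chain, 10 rose (13.5%, against 2.66% of all genes), none fell and 73 were above 0, with a median log2 change of 0.37. Cox8a, a subunit of cytochrome c oxidase, was at 103, 106 and 98.7 CPM on PDL and 166, 119 and 127 CPM on laminin, separate but with replicate 1 far above the other two Laminin libraries (log2 change 0.42 ± 0.10 SE, adjusted p = 0.0362). The complex I subunits Ndufs7 and Ndufa13 and the complex III subunit Uqcrc1 rose by 0.43 ± 0.11, 0.39 ± 0.10 and 0.33 ± 0.09 SE. Laminin replicate 1 was the highest Laminin library in 72 of the 74 genes, and without it 1 of them passed. The number called was 60 without Laminin replicate 2, 40 without Laminin replicate 3 and 2 without PDL replicate 3. Over all genes the number higher was 1267, 642 and 255 in the same order, and 163 without Laminin replicate 1. Of 75 ribosomal proteins none passed, while 74 were above 0 with a median of 0.36, and the same library was highest in 65. Without Laminin replicate 2, 55 of the 75 were called and higher, and without Laminin replicate 3, 12 were. Over all genes 1267 and 642 were higher in these fits, against 419 in the main fit. Among 25 genes of cholesterol synthesis and uptake, 2 rose (8%, against 2.66% of all genes). They were Fdps and Pmvk, both enzymes of the mevalonate route, with log2 changes of 0.34 ± 0.09 and 0.31 ± 0.08 SE. Of 19 genes of glycolysis and hypoxia, 1 rose (5.26%, against 2.66% of all genes) and 2 fell (10.5%, against 5.48%). In this list 15 were above 0 (78.9%, against 52.3% of all genes), with a median log2 change of 0.18. Of the 19, 6 lay wholly higher on laminin and 2 wholly lower (10.4% and 11.4% of all genes did). Egln1, an oxygen-sensing prolyl hydroxylase, rose by 0.20 ± 0.05 SE. Vegfa, a growth factor of vessels, and the phosphofructokinase Pfkp fell (log2 changes -0.54 ± 0.10 and -0.91 ± 0.25 SE). Single genes passed in 4 further lists. A fall made up 6.67% of immediate early genes and 7.14% of integrated stress response genes, against 5.48% of all genes. A rise made up 7.14% of p53 targets and 4.17% of histone cluster genes, against 2.66% of all genes. Of 15 immediate early genes, Npas4, which neuronal activity induces, was at 12.4, 16.0 and 10.5 CPM against 4.18, 10.2 and 9.21 (log2 change -0.78 ± 0.20 SE). Of 14 genes of the integrated stress response, the lipoprotein receptor Vldlr fell (log2 change -0.23 ± 0.07 SE). Vldlr kept the call in 0 of the 6 fits with 1 library left out. Of 14 p53 targets, Bax, an activator of cell death, rose by 0.32 ± 0.08 SE. Of 24 histone cluster genes, Hist3h2ba rose by 0.44 ± 0.12 SE.

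The same laminin step was then read in the other 6 libraries, where laminin was added to a coat that held myelin. No gene differed between laminin plus myelin and Myelin at an adjusted p under 0.05 in edgeR or in DESeq2, and 155 genes (0.985%) had an unadjusted p under 0.05 in edgeR. The 419 genes higher on laminin had a median log2 change there of 0.01 and 236 of them (56.3%) had the same sign. The 863 lower genes had a median of 0.01 and 329 (38.1%) had the same sign, against 48.8% of all genes. The median level of these lower genes was 29.3 CPM for PDL, 20.7 for Laminin, 20.4 for laminin plus myelin and 20.2 for Myelin. In the same order it was 49.8, 63.0, 58.3 and 58.0 CPM for the higher genes. Thus Myelin, which held no laminin, lay nearer to Laminin than to PDL in both sets. The sets were chosen by Laminin against PDL, and the cause of this order was not tested. Acta2 was at 40.5, 49.8 and 25.1 CPM in Myelin replicates 1 to 3 and at 28.8, 51.5 and 36.0 CPM with laminin plus myelin, a log2 change of 0.05 ± 0.21 SE. All 6 of these libraries were above the highest PDL library. Meg3 was at 1681, 1011 and 1017 CPM and 1674, 1179 and 1016 CPM, all under the lowest PDL library (log2 change 0.06 ± 0.26 SE). Gria2 (log2 change 0.04 ± 0.14 SE), Nktr (0.04 ± 0.13 SE) and Cspp1 (0.02 ± 0.10 SE) did not pass on myelin. The difference between the 2 laminin steps was itself tested as an interaction. No gene passed it in edgeR, although 2603 (16.5%) lay under 0.05 before adjustment. DESeq2 called 242 genes, and edgeR called 83 without Laminin replicate 1. The share of counts outside genes in these other 2 coats is given above.

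**Figure D5:**
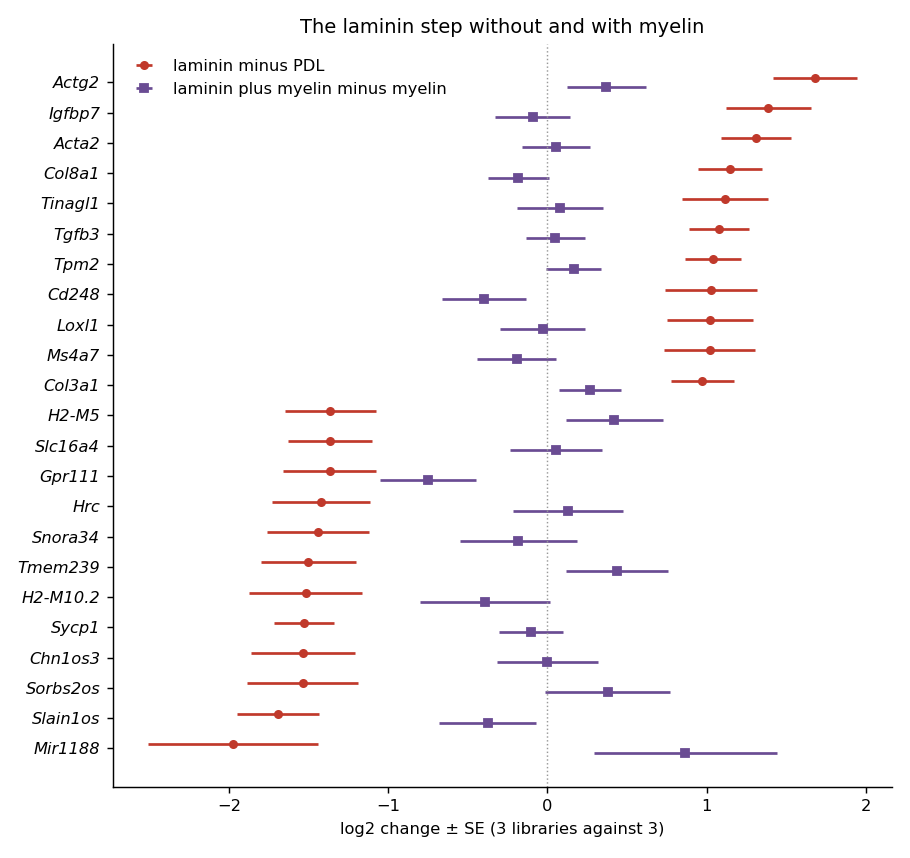
Log2 change ± SE (3 libraries against 3) of 11 of the 12 largest rises and of the 12 largest falls, for laminin minus PDL (red circles, the values by which the genes were chosen) and for laminin plus myelin minus Myelin (purple squares, other libraries). The red points lie from -1.97 to 1.68; the purple points lie from -0.75 to 0.87 and none passed the test.

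The authors' deposited table of the same comparison lists 76 genes at an adjusted p under 0.05, 1 higher and 75 lower on laminin. Of these, 75 (98.7%) were also called here, which is 5.85% of the genes called here. The gene that the authors' deposited table gives as higher is Acta2, at a log2 change of 1.30 and an adjusted p of 0.00232, close to the value found here. In the authors' deposited table Actg2 had a log2 change of 1.64 and an adjusted p of 0.0562, Tgfb3 of 1.04 and 0.208, and Sycp1 of -1.48 and 0.0398.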

How the data were processed

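The analysis started from a single table, in which the authors deposited whole-number counts per gene for 12 libraries, not normalized, beside their own log2 fold changes and adjusted p-values (FDR). The authors' 12 normalized columns were not used. Per the labels' protocols, libraries were made with a TruSeq RNA kit and read in pairs. Per the submitters' processing notes, CASAVA 1.8.2 and edgeR were used, with the builds mm10 and GRCm38. How reads were aligned, counted and assigned to strands is not given in the sources used here.

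Of 21033 entries, 3 named no gene (outside genes 8.46% to 19.4% of counts, aligned to several places 11.5% to 13.6%, ambiguous 0.579% to 0.717%) and were left out, leaving 21030 genes. A spreadsheet had turned 27 symbols into dates, of which 25 were restored. Counts in genes were 36061511 to 45024091 per library. Replicates differed by more than sampling noise (chi-square per degree of freedom 18.0 to 71.5).

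All 12 libraries entered one fit in edgeR 4.0.16 (R 4.3.3; filterByExpr on the 4 coats, TMM, robust quasi-likelihood test) with coat and replicate number as terms. P-values were adjusted over 15737 genes by Benjamini-Hochberg, with a threshold of 0.05. The biological coefficient of variation was 0.0901 with the block and 0.205 without. The replicate number was set as block together with the choice of the comparison, and the labels do not say that it marks a shared preparation. Same-numbered libraries of all coats correlated at 0.218 to 0.83 in 18 pairs, against -0.77 to 0.243 in 36 others. Deviations were taken from the mean of each coat, so the ranges for same and different numbers are not independent. CPM is the count divided by the TMM-scaled library size, on the usual CPM scale. The script was tested on simulated data. Alternatives used DESeq2 1.42.0, limma 3.58.1, other scaling, no filter, no block, a covariate and libraries left out. Coordinates are those of GENCODE M21 (GRCm38), matched by symbol.

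Genes named are the 12 largest rises and falls past the threshold with the same sign in all 3 pairs and a mean of at least 1 CPM on either coat (clones and predicted models left out), the 4 smallest p-values of each of 39 gene lists (all calls where there were 6 or fewer), every laminin receptor and chain, and the 6 smallest p-values overall. Hosts of named RNAs other than Snora34 were added to set beside them. The members and lists were chosen with earlier results of these data known. A few genes that this rule names are not reported here.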

Additional observations from a re-analysis of the deposited data

How the results depend on the processing

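Counts of genes called between laminin and PDL stayed within 1.5 times of 1282 with RLE size factors (1308), with no low-count filter (1287) and with limma-voom (1256). DESeq2 called 2384, with 1018 higher and 1366 lower. The count was 0 without the replicate block (2735 genes at an unadjusted p under 0.05), 0 in a fit of the 6 libraries alone with the block (3205) and 0 with the share of counts outside genes as a covariate (1205). Leaving out 1 of the 6 libraries gave 0 to 2481 genes, with 0 to 1267 higher and 0 to 1214 lower, and 0 without PDL replicate 1 or 2. The covariate turned the sign of 611 of the 1282 genes. In the other fits each called gene that could be tested kept its sign, 1277 of them in the fit of the 6 libraries alone. Those fits share the libraries by which the genes were chosen, so the kept signs are no separate support.

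Libraries outside the contrast shaped the count too, in fits added after seeing the data. Without Myelin replicates 1, 2 and 3 in turn it was 592, 637 and 394 (higher 98, 115 and 60; lower 494, 522 and 334). Without laminin plus myelin replicates 1, 2 and 3 it was 673, 968 and 727 (higher 141, 270 and 211; lower 532, 698 and 516). The cause was not tested.

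The laminin step on myelin called 0 genes in each of its fits, the one without the replicate block included. The interaction called 0 in the main fit and without the replicate block, 242 in DESeq2, and 0 to 83 when 1 library was left out, the 83 without Laminin replicate 1. The difference in the share of counts outside genes was -6.31 percentage points and ran from -7.26 to -4.65 with 1 library left out.

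The covariate turned the sign of 87 of the 190 named gene values, 33 of them among the 88 past the threshold. With it, for these 33, the log2 change was Mir1188 1.89, Sorbs2os 0.71, Chn1os3 0.57, H2-M10.2 0.49, Snora34 0.37, Hrc 0.58, Slc16a4 0.12, H2-M5 0.72, Flna 0.54, Tead1 0.0054, Robo3 0.42, Gria2 0.14, Slc6a5 0.36, Kcnq1ot1 0.13, Meg3 0.66, Mirg 0.57, Neat1 0.52, Pnn 0.022, Nktr 0.16, Npas4 0.40, Pfkp 0.88, Kcnd1 0.80 and Kcnh4 0.71. It was Ms4a7 -0.32, Marcksl1 -0.042, Stmn3 -0.15, Cfl1 -0.12, Gap43 -0.12, Tubb2a -0.027, Fdps -0.041, Uqcrc1 -0.072, Ndufa13 -0.11 and Hist3h2ba -0.051. The standard errors of that fit were larger for most of these genes, but for Meg3 (0.19) and Pfkp (0.23) they were smaller than in the main fit. No gene passed with the covariate. Genes near 1 CPM have few counts, and the adjusted p of every call lies between 0.0171 and the threshold of 0.05.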
